A study of Drosophila melanogaster with 8 samples.

Results

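The cells of the adult male central brain that express *fruitless* (*fru*), called male *fru*+ cells, were compared with the other cells of the same brains, called male *fru*- cells. The comparison rests on 4 of the 8 RNA-seq libraries in the series, taken by their titles, with 2 replicates of male *fru*+ and 2 of male *fru*- cells, and the other 4 libraries hold the same populations from females. Of the 17137 *Drosophila melanogaster* reference genes in the tables, 10111 reached 1 TPM, a transcript share scaled to the whole library, in 2 or more of the 8 libraries and were tested. All groups came from w1118 flies of 2 to 7 days that carried UAS-mCD8-GFP over MB247-Gal80 and were heterozygous for Fru-GAL4. In these flies Gal4 made from the sex-specific *fru* promoter switches on a membrane GFP, and Gal80 under MB247 keeps GFP off in the γ Kenyon cells of the mushroom body. The γ Kenyon cells transcribe *fru*, so the *fru*- gate held a *fru*-transcribing cell type by design. Optic lobes were removed, brains of a sex were pooled, dead cells were gated out with DAPI, and GFP-negative cells were collected in numbers matched to the GFP-positive ones.

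*fru* encodes transcription factors with a BTB domain and zinc fingers. Its sex-specific transcripts are spliced so that the Fru M protein is made in males and not in females, and the neurons that use this promoter, of many lineages and shapes, form the circuits for male courtship. Male *fru*+ and *fru*- cells thus differ in cell makeup, in *fru* transcription and in Fru M protein at the same time, and these cannot be told apart in this comparison. In bulk samples, fewer cells of a type and less RNA per cell cannot be told apart either.

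The 4 male libraries held 3.59 to 4.93 Gb of aligned sequence, and 9220 to 9397 genes reached 1 TPM in each. Spearman's rho across the tested genes was 0.98 between the male *fru*+ replicates, 0.983 between the male *fru*- replicates and 0.964 to 0.970 between the groups. *fru* was listed at 56.2 and 63.1 TPM in male *fru*+ against 8.19 and 7.39 TPM in male *fru*- cells (log2 difference 2.79, SE 0.46, adjusted p = 0.034, or 0.0651 with the block), so both libraries labelled *fru*+ lay above both labelled *fru*-. The neuronal markers *elav*, an RNA-binding protein of neurons, and *nSyb*, a synaptic vesicle protein, had log2 differences of -0.44 and -0.13 (adjusted p = 0.504 and 0.799). Levels below are given for replicates 1 and 2 in that order, and a log2 difference is male *fru*+ minus male *fru*- on the scale of log2(TPM + 1), with its standard error (SE) and the p that limma gave, adjusted over all tested genes.

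Of the tested genes, 31 were higher in male *fru*+ cells (0.307% of those tested) and 21 were lower (0.208%) at a limma adjusted p under 0.05, and in all 52 the libraries of the 2 groups did not overlap. Setting the 10 neuropeptide genes aside, the genes that rose included those for making and moving serotonin and dopamine, an amino acid transporter, a cuticle protein and the transcription factors *fru*, *lbl* and *odd*, and those that fell included detoxifying enzymes, solute transporters, peptidases and the eye and mushroom body factor *ey*. The genes called higher added up to 13824 and 13718 TPM in male *fru*+ against 3157 and 4081 TPM in male *fru*- cells. The genes called lower added up to 553 and 577 TPM in male *fru*+ against 1952 and 2166 TPM in male *fru*- cells. Log2 differences were 1.07 or more among the genes that rose and -1.39 or less among those that fell. The calls depended on the libraries fitted. A fit to the 4 male libraries alone called 73 genes higher (0.722%) and 109 lower (1.08%), all 52 among them, while 32 of the 52 passed with the replicate number as a block. Without male *fru*+ replicate 1 or 2 there were 9 and 5 calls, and without male *fru*- replicate 1 or 2 there were 7 each. Without female *fru*- replicate 1 or 2 there were 149 and 155. Only *Trissin*, *Cpr49Ae* and *JhI-21* passed in each of the 8 fits that left out a library, and the highest adjusted p of the other 49 over these fits lay between 0.0546 and 0.386.

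Lower values were more frequent than higher ones across the whole table. Both male *fru*+ libraries lay above both male *fru*- libraries in 1517 genes (15.0%) and below them in 3445 (34.1%). At an unadjusted p under 0.05, 378 genes were higher (3.74%) and 976 lower (9.65%). A difference of at least 2-fold on this scale without overlap was found in 178 genes that were higher (1.76%) and in 417 that were lower (4.12%). The median log2 difference of all tested genes was -0.14, and scaling the libraries by the median of ratios moved it to -0.01. Hence the lists below are read against that median and these shares.

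**Figure D1:**
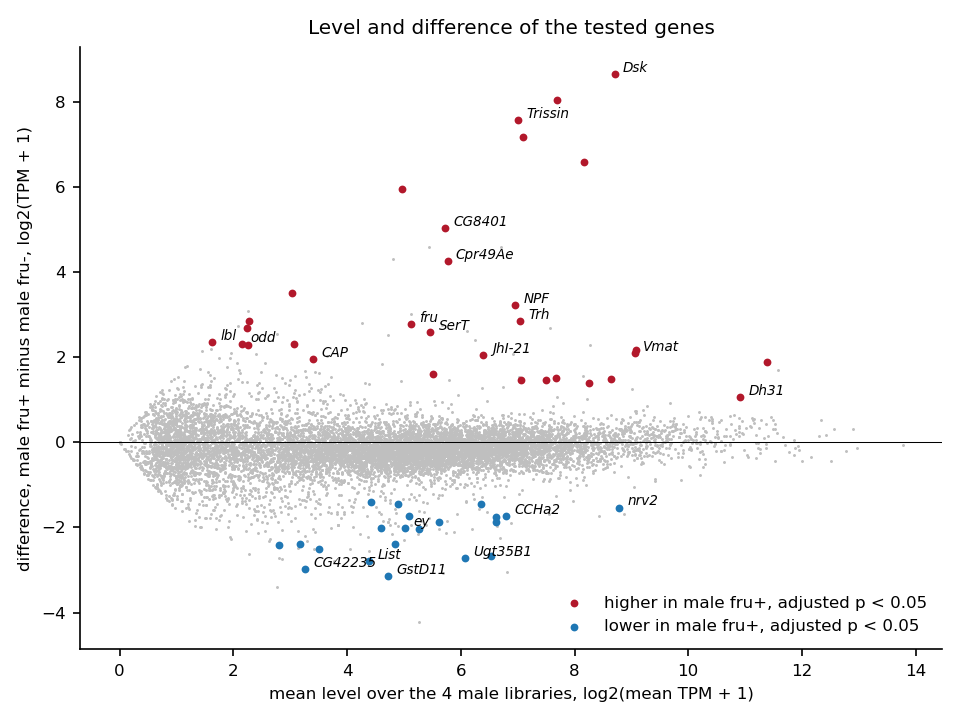
Each point is a tested gene, with its mean level over the 4 male libraries as log2(mean TPM + 1) on the horizontal axis and its difference between male *fru*+ and male *fru*- cells on the vertical axis. The 31 genes called higher (red) reach further from 0 than the 21 called lower (blue), and the labelled genes are described in the text.

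5 genes for making and moving serotonin and dopamine rose in male *fru*+ cells. Dopamine and serotonin are each made by a hydroxylase and a shared decarboxylase, are loaded into vesicles by Vmat and are taken back up by a carrier of their own. Of the 12 tested genes of this list, 5 were higher and 0 were lower, 10 had a positive difference, and their median log2 difference was 1.21. *Trh*, the neuronal tryptophan hydroxylase that begins serotonin synthesis, was listed at 221 and 239 TPM in male *fru*+ against 32.2 and 29.7 TPM in male *fru*- cells (log2 difference 2.85, SE 0.30, adjusted p = 0.00365). *SerT*, the serotonin carrier, was listed at 71.9 and 77.1 TPM in male *fru*+ against 14 and 9.39 TPM in male *fru*- cells (log2 difference 2.60, SE 0.25, adjusted p = 0.00293). For both serotonin genes the groups did not overlap. *ple*, the tyrosine hydroxylase of dopamine synthesis, was listed at 285 and 320.1 TPM in male *fru*+ against 106 and 105 TPM in male *fru*- cells (log2 difference 1.51, SE 0.23, adjusted p = 0.0271, or 0.0651 with the block). *DAT*, the dopamine carrier, was listed at 172 and 217 TPM in male *fru*+ against 79.1 and 61.5 TPM in male *fru*- cells (log2 difference 1.45, SE 0.21, adjusted p = 0.0203). *Vmat* was the most abundant of the 5 and was listed at 936 and 786 TPM in male *fru*+ against 222 and 182 TPM in male *fru*- cells (log2 difference 2.09, SE 0.36, adjusted p = 0.0374, or 0.0948 with the block).

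*Ddc*, the decarboxylase that dopamine and serotonin share, did not follow these genes and was listed at 627 and 615 TPM in male *fru*+ against 649 and 574 TPM in male *fru*- cells, with overlapping groups (log2 difference 0.03, SE 0.18, adjusted p = 0.965). The octopamine genes did not pass, although their libraries did not overlap. *Tdc2*, the neuronal tyrosine decarboxylase, was listed at 27.9 and 46.5 TPM in male *fru*+ against 13.8 and 6.27 TPM in male *fru*- cells (log2 difference 1.83, adjusted p = 0.163), and *Tbh*, which makes octopamine from tyramine, at 50.3 and 70.5 TPM in male *fru*+ against 30.5 and 29.6 TPM in male *fru*- cells (log2 difference 0.96, adjusted p = 0.205). *Pu* and *Dhpr*, which make and recycle the biopterin cofactor of the hydroxylases, had log2 differences of 0.55 and 0.68 (adjusted p = 0.225 and 0.0961). *Hdc*, the histidine decarboxylase of histamine neurons, stood at the other side with 0.128 and 0.193 TPM in male *fru*+ against 9.08 and 1.93 TPM in male *fru*- cells (log2 difference -2.23, adjusted p = 0.226). *Ddc*, *Tdc2*, *Tbh*, *Dhpr* and *Hdc* were chosen after their values were seen.

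The genes of the fast transmitters showed no such rise. Of 17 tested genes listed for acetylcholine, GABA and glutamate, 0 were higher and 1 was lower, with a median of -0.24. At an unadjusted p under 0.05 in limma, 0 were higher and 3 lower (0% and 17.6%, against 3.74% and 9.65% of all genes). *Gad1*, which makes GABA, was listed at 3406 and 3429.9 TPM in male *fru*+ against 2977 and 3259.6 TPM in male *fru*- cells, and *VGlut*, the vesicular glutamate transporter, at 223 and 249 TPM in male *fru*+ against 252 and 238 TPM in male *fru*- cells. *ChAT*, which makes acetylcholine, was listed at 384 and 352 TPM in male *fru*+ against 447 and 479 TPM in male *fru*- cells, where male *fru*+ cells were below (log2 difference -0.33, adjusted p = 0.531). These 3 genes were chosen after their values were seen. *prt*, a vesicular transporter known from the mushroom body, was the gene that fell and was listed at 12.7 and 17 TPM in male *fru*+ against 48.8 and 54.3 TPM in male *fru*- cells (log2 difference -1.74, SE 0.27, adjusted p = 0.0271, or 0.0551 with the block). *prt* stands in the Kenyon cell list too, and no other gene of the transmitter list was called.

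**Figure D2:**
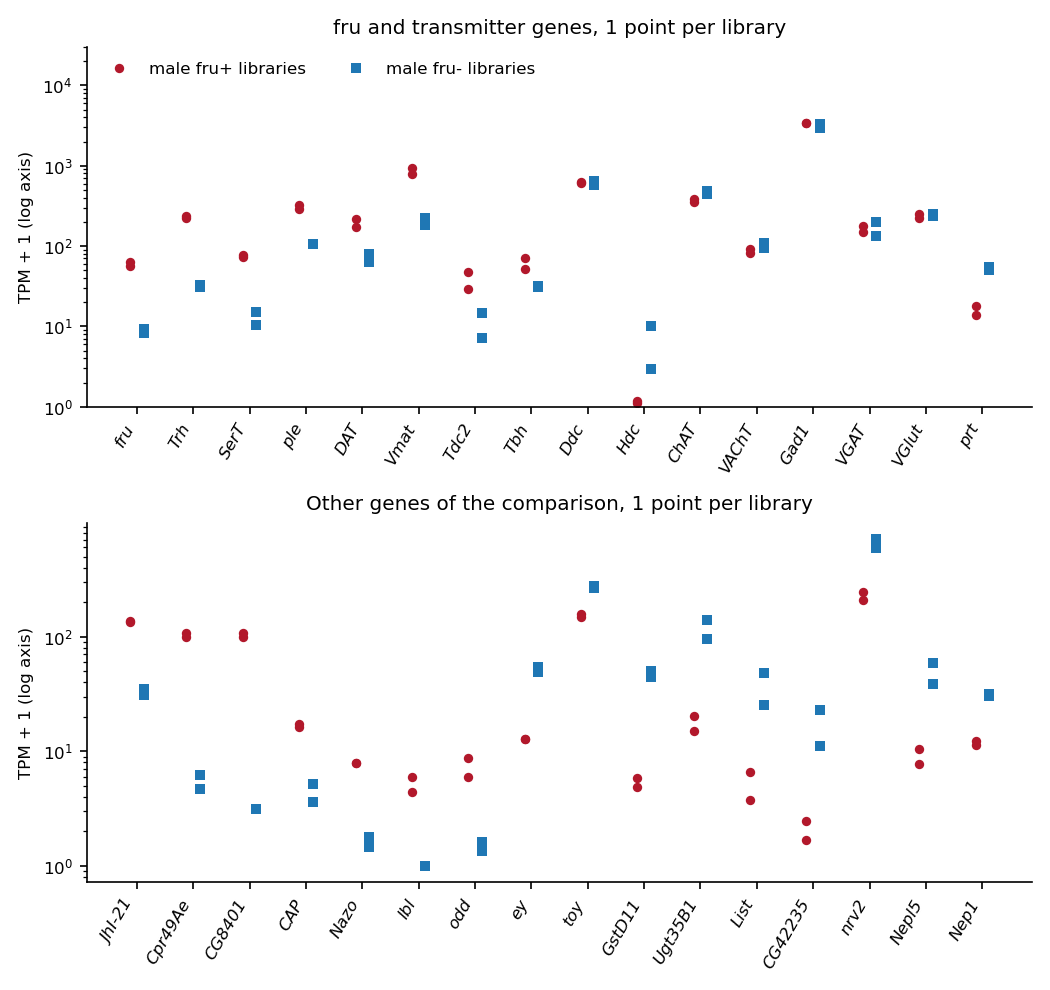
Each point is a library, with its TPM + 1 on a log axis for *fru* and transmitter genes (upper panel) and for other genes of the comparison (lower panel), male *fru*+ as red circles and male *fru*- as blue squares. The red and blue points of *Trh*, *SerT*, *ple*, *DAT* and *Vmat* lie apart with red above, those of *Ddc* and *VGlut* mix, and those of *ey*, *GstD11* and *nrv2* lie apart with blue above.

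The receptors for these transmitters gave no calls. Of the 97 tested receptor genes for fast transmitters, amines and peptides, 0 passed in limma, and 0 were higher and 14 lower at an unadjusted p under 0.05. The lower share, 14.4%, stood against 9.65% of all genes. The fit to the 4 male libraries and the block called 0 as well. Of the 24 metabotropic receptors for amines, acetylcholine, GABA and glutamate, 15 lay lower without overlap and 1 higher. These were 62.5% and 4.17%, against 34.1% and 15.0% of all genes, and the median was -0.32. *Octbeta1R*, an octopamine receptor, was listed at 166 and 153 TPM in male *fru*+ against 253 and 232 TPM in male *fru*- cells (log2 difference -0.60, adjusted p = 0.223). *Dop1R2*, a dopamine receptor of Kenyon cells, was listed at 9.61 and 8.76 TPM in male *fru*+ against 16 and 21.5 TPM in male *fru*- cells (log2 difference -0.94, adjusted p = 0.205). The nicotinic subunits were abundant and close to level, with a median of -0.15 over 10 genes. The smallest p among the receptor channels was that of *CG8916*, listed at 14.3 and 13.4 TPM in male *fru*+ against 27.9 and 39.5 TPM in male *fru*- cells (log2 difference -1.20, adjusted p = 0.0628). Among the 43 peptide receptors, *Lgr3*, a receptor for the relaxin-like peptide Dilp8, was listed at 2.40 and 2.25 TPM in male *fru*+ against 7.95 and 6.30 TPM in male *fru*- cells (log2 difference -1.28, adjusted p = 0.199).

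Of the 43 tested neuropeptide genes, 10 were higher and 1 was lower, and their median log2 difference was 0.46. *Trissin*, *CCAP* and *Ilp5* had the smallest p-values, and all 3 were near 0 in the male *fru*- libraries. *Trissin*, which encodes a peptide held by disulfide bonds, was listed at 243 and 268 TPM in male *fru*+ against 0.455 and 0.244 TPM in male *fru*- cells (log2 difference 7.57, SE 0.37, adjusted p = 2.2e-05), and *CCAP*, the crustacean cardioactive peptide, at 58.1 and 62.8 TPM in male *fru*+ against 0 and 0 TPM in male *fru*- cells. 4 genes of the insulin-producing cells, *Ilp2*, *Ilp3*, *Ilp5* and *Dsk*, added up to 1082 and 2352 TPM in male *fru*+ against 7.24 and 7.76 TPM in male *fru*- cells, so the replicates of male *fru*+ differed in this sum more than those of male *fru*- did. *Ilp2* was listed at 63.9 and 341 TPM in male *fru*+ against 3.95 and 6.74 TPM in male *fru*- cells (log2 difference 4.59, SE 1.05, adjusted p = 0.105, or 0.0343 with the block). *Dh31*, a diuretic hormone, was listed at 2770.0 and 2468 TPM in male *fru*+ against 1188 and 1303 TPM in male *fru*- cells (log2 difference 1.07, SE 0.16, adjusted p = 0.0203, or 0.0523 with the block), and *Ms*, myosuppressin, at 718 and 1061 TPM in male *fru*+ against 194 and 192 TPM in male *fru*- cells (log2 difference 2.17, SE 0.30, adjusted p = 0.015). *NPF*, neuropeptide F, was listed at 339 and 113 TPM in male *fru*+ against 26.3 and 15 TPM in male *fru*- cells (log2 difference 3.23, SE 0.43, adjusted p = 0.0132), with replicate 1 above replicate 2 in each group. *CCHa2*, a feeding-related peptide, was the gene that fell and was listed at 63.7 and 39.1 TPM in male *fru*+ against 175 and 164 TPM in male *fru*- cells (log2 difference -1.74, SE 0.28, adjusted p = 0.0279). *Ilp2*, *Dh31*, *Ms*, *NPF* and *CCHa2* were chosen after their values were seen.

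The enzymes that cut and release peptides did not rise as a group. Of 15 tested genes, 0 were higher and 1 was lower, with a median of -0.06. *7B2*, the partner of the prohormone convertase PC2, was abundant and listed at 2592 and 2774 TPM in male *fru*+ against 1699 and 2010.0 TPM in male *fru*- cells, above in both replicates without passing (log2 difference 0.54, adjusted p = 0.208). The gene that fell was *Nep1*, a neprilysin, which cleaves peptides outside cells, listed at 10.3 and 11.4 TPM in male *fru*+ against 30.9 and 29.3 TPM in male *fru*- cells (log2 difference -1.39, SE 0.25, adjusted p = 0.0465, or 0.0651 with the block). A related peptidase gene, *Nepl5*, fell further and was listed at 6.80 and 9.49 TPM in male *fru*+ against 37.7 and 57.4 TPM in male *fru*- cells (log2 difference -2.39, SE 0.40, adjusted p = 0.034, or 0.0806 with the block). Among the 40 tested genes of synaptic vesicle release 0 passed, and the median was -0.15. At an unadjusted p under 0.05 in limma 1 was higher and 3 were lower, both shares below those of all genes. Without overlap, however, 22 lay lower (55%, against 34.1% of all genes) and 3 higher (7.5%, against 15.0%).

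Transcription factors lay lower in male *fru*+ cells, mostly without passing the test. Of 279 tested genes in the lists of transcription factors, 3 were higher and 1 was lower. In 151 of them both male *fru*+ libraries lay below both male *fru*- libraries, a share of 54.1% against 34.1% of all genes, and in 38 they lay above, 13.6% against 15.0%. Their median was -0.34, and -0.21 after scaling by the median of ratios. The medians of the 5 classes ran from -0.40 for the 74 homeodomain factors to -0.33 for the 35 bHLH factors. At an unadjusted p under 0.05, 11 were higher (3.94% against 3.74% of all genes) and 66 lower (23.7% against 9.65%).

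Besides *fru*, the factors that rose were *lbl* and *odd*, both rare in these libraries. *lbl*, the homeodomain factor ladybird late, was listed at 3.39 and 4.93 TPM in male *fru*+ against 0 and 0.000460 TPM in male *fru*- cells (log2 difference 2.35, SE 0.39, adjusted p = 0.034, or 0.0651 with the block). With *fru*- at or near 0 its difference depends on the pseudocount. *odd*, the zinc finger factor odd-skipped, was listed at 7.78 and 4.98 TPM in male *fru*+ against 0.618 and 0.340 TPM in male *fru*- cells (log2 difference 2.30, SE 0.39, adjusted p = 0.0374, or 0.0651 with the block). In both genes the male *fru*- libraries were under 1 TPM. *ey*, a Pax6 factor of the eye and the mushroom body, fell and was listed at 11.9 and 11.8 TPM in male *fru*+ against 53 and 48.4 TPM in male *fru*- cells (log2 difference -2.01, SE 0.22, adjusted p = 0.00406). Its paralog *toy* was listed at 148 and 156 TPM in male *fru*+ against 276 and 268 TPM in male *fru*- cells without passing (log2 difference -0.84, adjusted p = 0.0883). *Sox102F*, a SoxD factor, was listed at 12.9 and 13.2 TPM in male *fru*+ against 31.6 and 33.9 TPM in male *fru*- cells (log2 difference -1.26, adjusted p = 0.059), and *Smox*, the Smad of activin signalling, at 216 and 175 TPM in male *fru*+ against 382 and 398 TPM in male *fru*- cells (adjusted p = 0.0883). In the fit to the 4 male libraries, *toy*, *Sox102F* and *Smox* passed (adjusted p = 0.0281, 0.0448 and 0.0236). *Dll*, the limb and antenna factor Distal-less, was listed at 2.11 and 2.06 TPM in male *fru*+ against 8.03 and 8.69 TPM in male *fru*- cells (log2 difference -1.60, adjusted p = 0.0879).

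By chromosome arm, the called genes were 22 of 2486 (0.885%) of those tested on 3R, 13 of 2029 (0.641%) on 2R, 7 of 1814 (0.386%) on 2L, 7 of 1959 (0.357%) on 3L, 1 of 94 (1.06%) on chromosome 4 and 2 of 1717 (0.116%) on X, against 52 of 10111 (0.514%) in all, and the unequal shares were not tested. In dm6 coordinates, *fru* spans chr3R:18414273-18545586, *Trh* chr3L:1190384-1193173, *SerT* chr2R:24404595-24411074, *Cpr49Ae* chr2R:12402216-12405108, *JhI-21* chr2L:12051755-12056042, *ey* chr4:697689-721173 and *GstD11* chr3R:12383336-12385624.

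Among the 25 tested genes of sex determination and dosage compensation, *fru* alone passed, and the median was -0.39. At an unadjusted p under 0.05 in limma, 3 were higher and 8 lower (12% and 32%, against 3.74% and 9.65% of all genes). The fit to the 4 male libraries also called 1 gene lower, *lncRNA:roX2*, a noncoding RNA of dosage compensation. *dsx*, the doublesex transcription factor that acts beside *fru*, was listed at 7.42 and 5.93 TPM in male *fru*+ against 0.758 and 4.64 TPM in male *fru*- cells, higher in both male *fru*+ libraries by a margin that did not pass (log2 difference 1.28, adjusted p = 0.332). *tra2*, a splicing factor that acts on *fru* and *dsx* transcripts, was listed at 46.7 and 47.7 TPM in male *fru*+ against 60.7 and 70.6 TPM in male *fru*- cells (log2 difference -0.46, adjusted p = 0.314). Both were chosen after their values were seen.

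Among 62 tested solute transporters, 1 was called higher and 2 lower, and the median was -0.17. More of them leaned lower in limma, with 1 higher and 13 lower at an unadjusted p under 0.05. These were 1.61% and 20.97%, against 3.74% and 9.65% of all genes. The shares without overlap, 14.5% higher and 37.1% lower, were near the 15.0% and 34.1% of all genes. *JhI-21*, an amino acid transporter first found as a gene that juvenile hormone induces, was listed at 137 and 133 TPM in male *fru*+ against 33.7 and 29.8 TPM in male *fru*- cells (log2 difference 2.05, SE 0.18, adjusted p = 0.00171). Its replicates lay close together in each group. *List*, a transporter of the family that carries neurotransmitters with sodium, was listed at 2.79 and 5.67 TPM in male *fru*+ against 24.4 and 47.1 TPM in male *fru*- cells (log2 difference -2.80, SE 0.41, adjusted p = 0.0203, or 0.0511 with the block). *CG42235*, a sodium and solute cotransporter, was listed at 0.682 and 1.49 TPM in male *fru*+ against 10.1 and 22.1 TPM in male *fru*- cells (log2 difference -2.97, SE 0.47, adjusted p = 0.0279, or 0.0676 with the block). In both genes called lower, replicate 2 lay above replicate 1 in each group, and the groups did not overlap.

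Among enzymes that conjugate foreign compounds, a glutathione S-transferase and a UDP-glycosyltransferase fell. *GstD11*, a glutathione S-transferase, had the lowest log2 difference of the called genes and was listed at 4.87 and 3.89 TPM in male *fru*+ against 43.2 and 48.9 TPM in male *fru*- cells (log2 difference -3.13, SE 0.31, adjusted p = 0.00295). Its relative *GstE1* was listed at 3.25 and 4.69 TPM in male *fru*+ against 26.7 and 27.4 TPM in male *fru*- cells and just missed the threshold (log2 difference -2.51, adjusted p = 0.0521). *GstO3* went the other way with 20.6 and 17.1 TPM in male *fru*+ against 2.28 and 6.26 TPM in male *fru*- cells (log2 difference 2.02, adjusted p = 0.0628). Of 26 tested glutathione S-transferases, 14 lay lower and 5 higher without overlap, with a median of -0.48. These were 53.8% and 19.2%, against 34.1% and 15.0% of all genes. *Ugt35B1*, a UDP-glycosyltransferase, was listed at 14 and 19.5 TPM in male *fru*+ against 94.4 and 138 TPM in male *fru*- cells (log2 difference -2.72, SE 0.36, adjusted p = 0.0132), and the 14 tested genes of its family had a median of -0.57. Among 37 cytochrome P450 genes 0 passed in limma, and the median was -0.39. At an unadjusted p under 0.05, 1 was higher and 8 were lower (2.70% and 21.6%, against 3.74% and 9.65% of all genes).

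Glial and Kenyon cell genes moved with these differences. The glial list, of 28 tested genes, had a median of -0.95, with 20 genes lower without overlap, 1 higher and 1 called. The shares of the glial list without overlap were 71.4% lower and 3.57% higher, against 34.1% and 15.0% of all genes. Its 31 genes added up to 1132 and 1295 TPM in male *fru*+ against 2794 and 2545 TPM in male *fru*- cells, and no glial marker was at 0 in all 4 libraries. *repo*, the homeodomain factor that defines most glia, was listed at 0.659 and 2.81 TPM in male *fru*+ against 6.21 and 7.19 TPM in male *fru*- cells (log2 difference -1.61, adjusted p = 0.254). *nrv2*, a β subunit of the sodium pump that glia use, was the gene called and was listed at 209 and 242 TPM in male *fru*+ against 598 and 711 TPM in male *fru*- cells (log2 difference -1.53, SE 0.21, adjusted p = 0.0158). *alrm*, a marker of astrocyte-like glia, was listed at 24.4 and 29.8 TPM in male *fru*+ against 144 and 90.0 TPM in male *fru*- cells and passed in the fit to the 4 male libraries (adjusted p = 0.0145, against 0.208 with all 8), as 8 of the list did. *bnb*, a glial gene, was listed at 9.64 and 12.6 TPM in male *fru*+ against 42.2 and 50.6 TPM in male *fru*- cells (log2 difference -1.98, adjusted p = 0.0775). The part of glial cells in the differences of other genes was not tested. *alrm* was chosen after its values were seen.

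The Kenyon cell list, of 16 genes, had a median of -0.86. In this list 12 were lower without overlap and 0 higher (75% and 0%, against 34.1% and 15.0% of all genes). It added up to 2087 and 1954 TPM in male *fru*+ against 3604 and 3318 TPM in male *fru*- cells. The genes called in it were *ey* and *prt*, which stand in the lists above too. *jdp*, a DnaJ-domain gene, was listed at 718 and 606 TPM in male *fru*+ against 1348 and 1093 TPM in male *fru*- cells and *Pka-C1*, the catalytic subunit of protein kinase A, at 169 and 114 TPM in male *fru*+ against 402 and 323 TPM in male *fru*- cells, both lower in the 2 male *fru*+ libraries and called by the fit to the 4 male libraries alone (adjusted p = 0.0337 and 0.0286, against 0.163 and 0.31 with all 8). Both were chosen after their values were seen. The part of Kenyon cells, which the gate put with the *fru*- cells, in these differences was not tested.

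The 16 general neuronal genes had a median of -0.12, that of all genes being -0.14, and added up to 4754 and 4392 TPM in male *fru*+ against 4911 and 4652 TPM in male *fru*- cells. The hemocyte list added up to 105 and 112 TPM in male *fru*+ against 79.9 and 102 TPM in male *fru*- cells, with *He* and *NimC2* at 0 in all 4 libraries, and the fat body list to 83.8 and 85.4 TPM in male *fru*+ against 62.7 and 77.1 TPM in male *fru*- cells. The muscle list added up to 49.5 and 56.5 TPM in male *fru*+ against 109 and 74.4 TPM in male *fru*- cells, and the photoreceptor list to 220.2 and 209 TPM in male *fru*+ against 275 and 287 TPM in male *fru*- cells. Of the hemocyte, fat body, muscle and photoreceptor lists, 9, 9, 10 and 16 genes were tested and 0 were called in limma. At an unadjusted p under 0.05, 1 hemocyte, 2 muscle and 5 photoreceptor genes were lower (11.1%, 20% and 31.25%, against 9.65% of all genes). On the same measure 1 hemocyte and 2 fat body genes were higher (11.1% and 22.2%, against 3.74%).

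**Figure D3:**
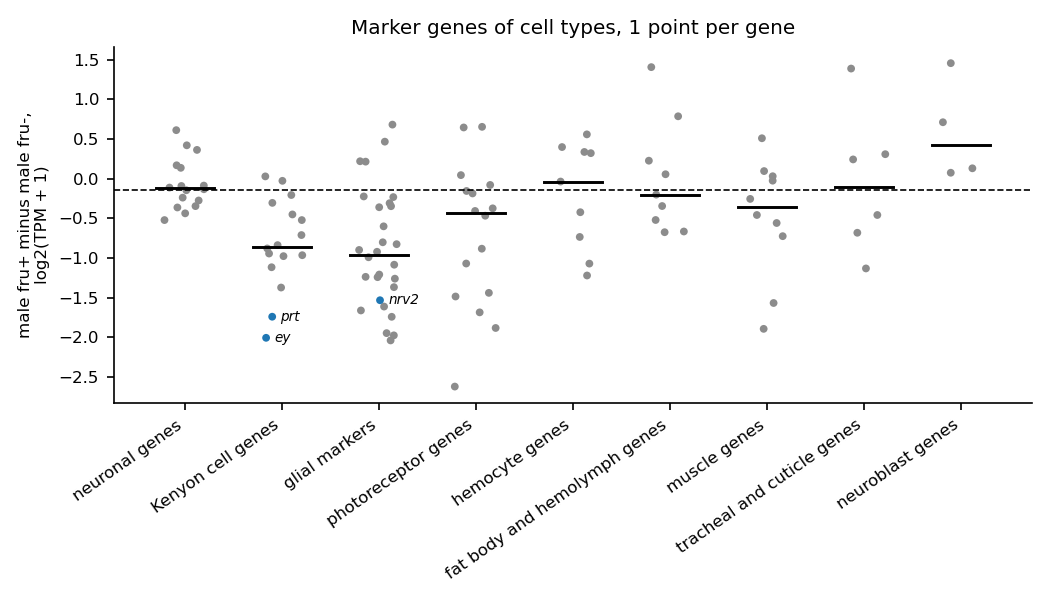
Each point is a tested marker gene of the cell type named below it, with its difference between male *fru*+ and male *fru*- cells on the vertical axis, a bar at the median of the list and a dashed line at the median of all tested genes, -0.14. The medians of Kenyon cell and glial genes, -0.86 and -0.95, lie below the line, and the called genes *ey*, *prt* and *nrv2* are in blue.

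Innexins lay lower, as glial genes did. Of the 5 tested innexins, which form gap junctions in insects, 0 passed in limma with all 8 libraries, and the median was -1.42. At an unadjusted p under 0.05, 3 were lower and 0 higher (60% and 0%, against 9.65% and 3.74% of all genes). Without overlap 3 were lower and 0 higher as well (60% and 0%, against 34.1% and 15.0%). *ogre* was listed at 21.3 and 22.6 TPM in male *fru*+ against 67 and 54.7 TPM in male *fru*- cells (log2 difference -1.42, adjusted p = 0.279, or 0.0244 in the fit to the 4 male libraries), and *Inx2*, which is also in the glial list, at 8.82 and 18.1 TPM in male *fru*+ against 44.6 and 40.2 TPM in male *fru*- cells (log2 difference -1.66, adjusted p = 0.257).

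Ion channels and surface molecules, which set how neurons fire and with whom they connect, gave no calls in limma. Of 71 tested channel genes, 0 were higher and 9 lower at an unadjusted p under 0.05 in limma, and the median was -0.24. The lower share, 12.7%, was near the 9.65% of all genes but differed between the channel lists. It was 23.3% for potassium channels, 0% for sodium and calcium channels and 9.09% for TRP and other channels. Without overlap, 36 of the 71 lay lower and 4 higher (50.7% and 5.63%, against 34.1% and 15.0% of all genes). Potassium channels were the lowest of the 3 channel lists, with a median of -0.41. In them 20 of 30 genes were lower without overlap and 1 higher (66.7% and 3.33%, against 34.1% and 15.0% of all genes). *Elk*, a voltage-gated potassium channel, was listed at 9.54 and 10.4 TPM in male *fru*+ against 23.5 and 24.6 TPM in male *fru*- cells (log2 difference -1.19, adjusted p = 0.0925), and *sei*, of the same wider family, at 109.9 and 117 TPM in male *fru*+ against 155 and 161 TPM in male *fru*- cells (log2 difference -0.48, adjusted p = 0.223). Of 154 surface molecules, 88 lay lower without overlap and 9 higher (57.1% and 5.84%, against 34.1% and 15.0% of all genes). At an unadjusted p under 0.05 in limma, 2 were higher and 20 lower (1.30% and 13%, against 3.74% and 9.65%), and the median was -0.22. The 33 Dpr and DIP proteins, which pair neurons with partners, had a median of -0.23. Of these 17 lay lower without overlap and 0 higher (51.5% and 0%, against 34.1% and 15.0% of all genes). *Fas3*, an adhesion molecule, was listed at 25.6 and 20.9 TPM in male *fru*+ against 43.5 and 44.7 TPM in male *fru*- cells (log2 difference -0.90, adjusted p = 0.19), and *side-VI*, of the Side family, at 51.5 and 45.9 TPM in male *fru*+ against 112 and 88.8 TPM in male *fru*- cells (log2 difference -1.02, adjusted p = 0.229, or 0.0474 in the fit to the 4 male libraries). *CG17716*, of the same list, was higher in both replicates, listed at 45.9 and 42.4 TPM in male *fru*+ against 29.3 and 27.4 TPM in male *fru*- cells (log2 difference 0.62, adjusted p = 0.229).

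Genes with no known role in transmission were among the largest differences. *Cpr49Ae*, a protein with the chitin-binding domain of insect cuticle, was listed at 106 and 98.7 TPM in male *fru*+ against 5.21 and 3.70 TPM in male *fru*- cells (log2 difference 4.26, SE 0.27, adjusted p = 1.1e-04). Another 23 cuticle protein genes were tested and not called, and the median of the family was 0.11. Without overlap 10 of the 24 were higher and 5 lower (41.7% and 20.8%, against 15.0% and 34.1% of all genes). At an unadjusted p under 0.05 in limma, 7 were higher and 0 lower (29.2% and 0%, against 3.74% and 9.65%). *CG8401*, with no named function, was listed at 98.1 and 106 TPM in male *fru*+ against 2.16 and 2.14 TPM in male *fru*- cells (log2 difference 5.03, SE 0.63, adjusted p = 0.0114). *CG13056* was listed at 12.7 and 15.4 TPM in male *fru*+ against 0 and 0.761 TPM in male *fru*- cells (log2 difference 3.50, SE 0.63, adjusted p = 0.0483) and *CG42566* at 5.15 and 9.97 TPM in male *fru*+ against 0 and 0.295 TPM in male *fru*- cells (log2 difference 2.85, SE 0.45, adjusted p = 0.0279), both under 1 TPM in male *fru*- cells. *Nazo*, an antiviral gene downstream of STING, was listed at 6.92 and 6.94 TPM in male *fru*+ against 0.775 and 0.467 TPM in male *fru*- cells (log2 difference 2.30, SE 0.36, adjusted p = 0.0279, or 0.0551 with the block). *CAP*, a scaffold protein with SH3 domains, was listed at 16.2 and 15.4 TPM in male *fru*+ against 4.15 and 2.60 TPM in male *fru*- cells (log2 difference 1.97, SE 0.35, adjusted p = 0.0446, or 0.0771 with the block). It was chosen after its values were seen, and *CG12910* overlaps it on the same strand.

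Of 795 tested noncoding genes, 3 were called higher and 0 lower, where 0.307% and 0.208% of all genes were called. At an unadjusted p under 0.05 in limma, 30 were higher and 54 lower (3.77% and 6.79%, against 3.74% and 9.65% of all genes). The libraries do not record strand, so reads of overlapping genes cannot be told apart. *lncRNA:CR44832* was abundant and listed at 4658 and 3635 TPM in male *fru*+ against 795 and 1570.0 TPM in male *fru*- cells (log2 difference 1.88, SE 0.32, adjusted p = 0.0374, or 0.0847 with the block). *asRNA:CR44165* was listed at 7.01 and 7.25 TPM in male *fru*+ against 0.0113 and 0.559 TPM in male *fru*- cells (log2 difference 2.69, SE 0.36, adjusted p = 0.0132) and lies opposite *CG15909* and *CG9422*, and *lncRNA:CR43716*, listed at 9.31 and 16.6 TPM in male *fru*+ against 2.11 and 1.35 TPM in male *fru*- cells (log2 difference 2.32, SE 0.38, adjusted p = 0.034, or 0.0651 with the block), lies within the span of *dpy*. Of the 87 genes whose own values are given in the text, 39 overlap a gene on the other strand and 12 overlap a gene on the same strand. *Trh*, *Vmat*, *JhI-21*, *List* and *CCAP* are examples of the former, and *Dh31*, which overlaps *Bace*, of the latter.

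Among the other genes that fell, *CG14687* was listed at 34.3 and 16.3 TPM in male *fru*+ against 186 and 129.7 TPM in male *fru*- cells (log2 difference -2.66, SE 0.40, adjusted p = 0.0239). *a* (*arc*), a protein with PDZ domains, was listed at 1.85 and 3.09 TPM in male *fru*+ against 17.7 and 18.9 TPM in male *fru*- cells (log2 difference -2.50, SE 0.33, adjusted p = 0.0132), and 4 other genes overlap its span. *euc* was listed at 13.4 and 14.9 TPM in male *fru*+ against 58 and 63.5 TPM in male *fru*- cells (log2 difference -2.03, SE 0.28, adjusted p = 0.014), and *sosie* at 8.33 and 8.57 TPM in male *fru*+ against 30.1 and 46.1 TPM in male *fru*- cells (log2 difference -2.02, SE 0.29, adjusted p = 0.0203). In these genes every male *fru*- library lay above both male *fru*+ libraries. *CG4000* was listed at 0.849 and 1.35 TPM in male *fru*+ against 14.9 and 6.77 TPM in male *fru*- cells (log2 difference -2.41, SE 0.40, adjusted p = 0.034, or 0.0651 with the block), and *CG5404* at 1.39 and 2.49 TPM in male *fru*+ against 12.8 and 15.6 TPM in male *fru*- cells (log2 difference -2.39, SE 0.40, adjusted p = 0.034, or 0.0686 with the block).

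Genes of the respiratory chain and of ribosomes lay slightly higher, without passing. Of 44 tested subunits of complex I and cytochrome oxidase, 37 were higher without overlap and 1 was lower, and the median was 0.39. These were 84.1% and 2.27%, against 15.0% and 34.1% of all genes. In limma 0 passed, and the fit to the 4 male libraries called 4. At an unadjusted p under 0.05, 20 were higher and 0 lower (45.5% and 0%, against 3.74% and 9.65% of all genes). *COX7C*, a subunit of cytochrome oxidase, was listed at 1369 and 1519.6 TPM in male *fru*+ against 886 and 886 TPM in male *fru*- cells (log2 difference 0.70, adjusted p = 0.153, or 0.0244 in the fit to the 4 male libraries). *ND-B14.7*, of complex I, was listed at 637 and 710.5 TPM in male *fru*+ against 377 and 427 TPM in male *fru*- cells (log2 difference 0.74, adjusted p = 0.112, or 0.0357). The 73 mitochondrial and 88 cytoplasmic ribosomal proteins had medians of 0.27 and 0.17, with 41 and 62 genes higher without overlap and 2 and 7 lower. The higher shares were 56.2% and 70.5%, against 15.0% of all genes. The lower shares were 2.74% and 7.95%, against 34.1%. In both families 0 genes passed in limma. At an unadjusted p under 0.05, 9 and 2 were higher, and the cytoplasmic share was below that of all genes (12.3% and 2.27%, against 3.74%). In both families 0 were lower on this measure. TPM are shares of a library, so a rise of abundant genes and a fall of others cannot be told apart.

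**Figure D4:**
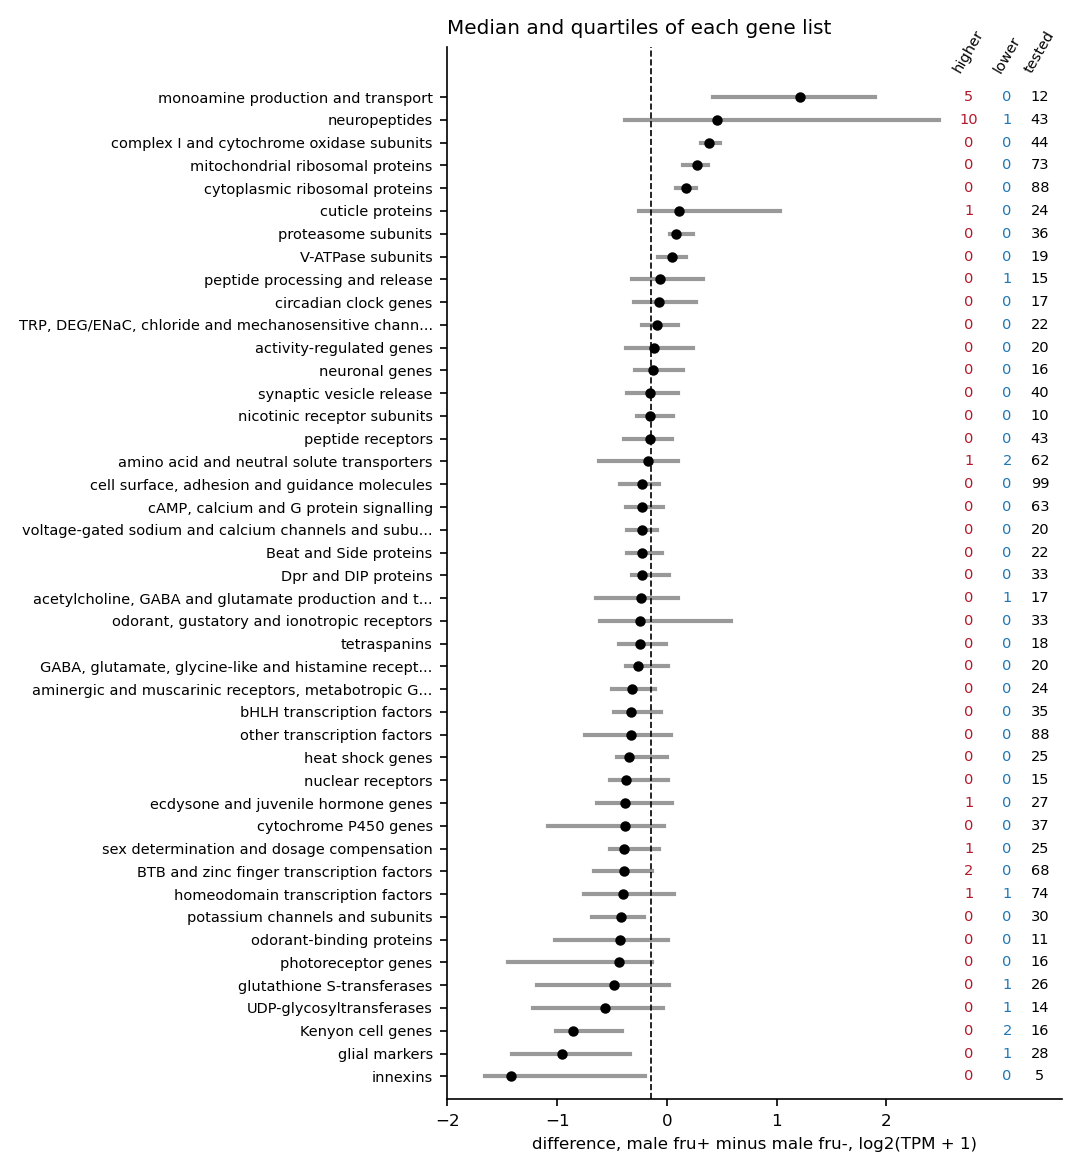
Each row is a gene list, with a point at the median and a bar from the lower to the upper quartile of the male difference, and a dashed line at the median of all tested genes. The columns at the right give the genes called higher, called lower and tested. Of the lists plotted, the monoamine list has the highest median, 1.21, and the innexins the lowest, -1.42.

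Female *fru*+ cells transcribe *fru* from the same promoter and make no Fru M protein, and the female differences are set beside the male ones here. Of the 52 genes, 34 were also called, with the same sign, in the female comparison, where 0.297% of the tested genes were called higher and 0.356% lower, and 51 had a difference of the same sign. The share of all tested genes with the same sign in both sexes was not counted, so these counts have no background to be read against. Both comparisons also used the spread estimated in a single fit to the 8 libraries and are not fully separate tests. The monoamine genes had female log2 differences of 2.66 for *Trh*, 2.52 for *SerT*, 2.03 for *ple*, 1.82 for *DAT* and 2.55 for *Vmat*. *JhI-21* had 2.10, *GstD11* -3.03, *nrv2* -1.61 and *lbl* 2.81. The male values were 2.05, -3.13, -1.53 and 2.35.

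The test of the difference between the sexes, the interaction of sex and *fru* status, called 0 of the 10111 genes (0.00%) in limma, with 237 at an unadjusted p under 0.05, of which 11 were among the 52. It called 2 genes without male *fru*+ replicate 2 and 1 without female *fru*+ replicate 2. The block called 0 too, with 307 at an unadjusted p under 0.05. *Trissin* came closest (interaction 3.86, SE 0.52, unadjusted p = 2.6e-05, adjusted p = 0.266). *Cpr49Ae* stood at 35.3 and 26.4 TPM in female *fru*+ against 6.72 and 6.22 TPM in female *fru*- cells, a difference of 2.08 where males had 4.26 (interaction 2.18, SE 0.37, unadjusted p = 1.8e-04, adjusted p = 0.91). *CAP* stood at 2.13 and 3.30 TPM in female *fru*+ against 4.51 and 3.62 TPM in female *fru*- cells, lower in female *fru*+ cells where it was higher in males (interaction 2.43, SE 0.49, unadjusted p = 6.1e-04, adjusted p = 0.911). *Nazo* stood at 1.23 and 1.39 TPM in female *fru*+ against 0.825 and 1.36 TPM in female *fru*- cells, a difference of 0.15 where males had 2.30 (interaction 2.15, SE 0.51, unadjusted p = 0.00199, adjusted p = 0.999). *CCHa2* stood at 203 and 121 TPM in female *fru*+ against 187 and 172 TPM in female *fru*- cells, a difference of -0.19 where males had -1.74 (interaction -1.55, SE 0.39, unadjusted p = 0.00278, adjusted p = 0.999). *Tmtc3*, of a family of O-mannosyltransferases, was listed at 12.3 and 17.5 TPM in male *fru*+ against 36.6 and 48.4 TPM in male *fru*- cells (log2 difference -1.46, SE 0.24, adjusted p = 0.034). Its female levels were 38.3 and 42.2 TPM in female *fru*+ against 49 and 52.1 TPM in female *fru*- cells (interaction -1.14, SE 0.34, unadjusted p = 0.0078, adjusted p = 0.999). None of these interactions passed the adjusted threshold, so a difference between the sexes was not shown for any of them. The genes beside *Trissin* were picked with their values in view.

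**Figure D5:**
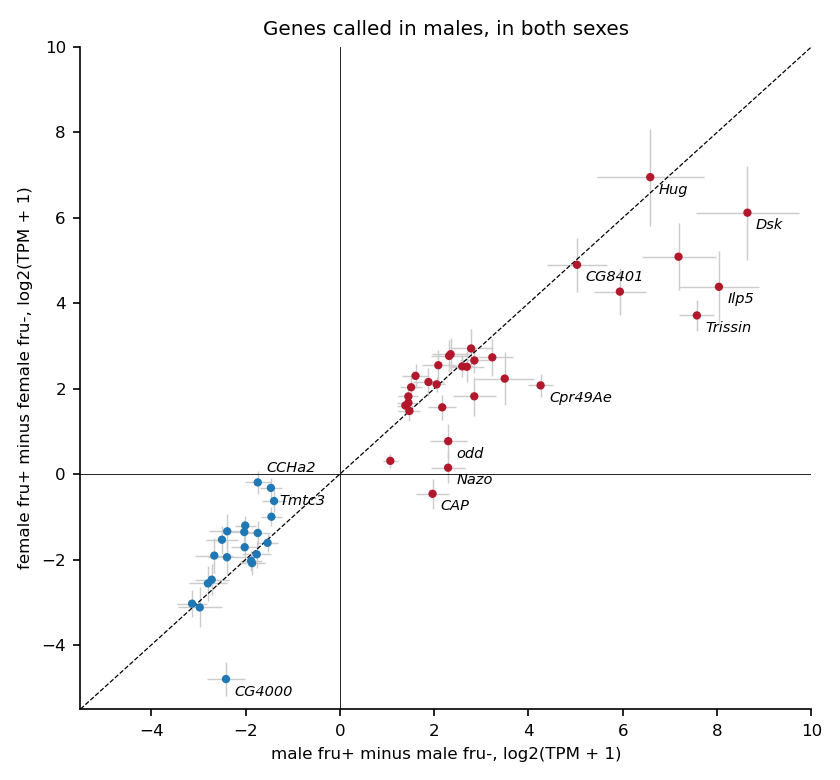
Each point is a gene called in the male comparison, with its male difference on the horizontal axis and its female difference on the vertical axis, both in log2(TPM + 1), and with bars of 1 standard error from limma. The dashed line marks equal differences, 51 of the 52 points have the same sign in both sexes, and *CAP* is the exception.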

How the data were processed

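RNA was sequenced from sorted *fru*+ and *fru*- cells of the male and female central brain, with 2 replicates each. Per the methods, replicates are sorting sessions that took both sexes, so numbers pair libraries. Across genes the deviations of replicate 1 from its group mean correlated with r = 0.249 for the male groups (-0.038 to 0.246 for other pairs of groups). The authors used Trim Galore and HISAT2 (dm6), kept unique alignments without duplicates, and ran StringTie 2.1.1 on each library without regard to strand. The deposited TPM and coverage are signal values that StringTie gives for each gene, and the deposited FPKM were used, with the coverage, only to obtain the aligned sequence of a library. No read counts were used, so no counting interval or detection limit can be given.

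Gene values were the TPM of rows with a reference gene name, summed over rows of a gene, as log2(TPM + 1). Genes that reached 1 TPM in 2 or more of the 8 libraries were tested with limma 3.58.1 in R 4.3.3, with 4 group means, a trend of the variance with level and Benjamini-Hochberg adjustment over 10111 genes at 0.05. With 2 replicates a group, p-values measure only the spread between these sorts. Alternatives were a pseudocount of 0.1, no filter, only genes averaging over 10 TPM, scaling by the median of ratios, only the 4 male libraries, the replicate block, no variance trend, and leaving out each library. On simulated data with the same design, limma called 89 of 100 genes changed by 2 and 100 of 100 changed by 4 on the log2 scale, and 6 unchanged genes. The simulated noise was normal, independent between libraries and of the spread limma had estimated, with no session effect. These calls thus tell how the fit works under its own assumptions and do not measure its power in these data.

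The members and lists were chosen with earlier results of these data known. The 40 hand-written lists held 1481 entries, 1462 matched, and 16 families were taken by symbol, and 2 entries were dropped after matching because they did not belong. Named genes are *fru*, *elav*, *nSyb* and *repo*, the 12 largest called differences in each direction outside the neuropeptides, and the 3 smallest p-values and any called gene of each list, with 3 for neuropeptides. The text marks a gene outside the rule. Chromatin accessibility was not analysed here.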

Additional observations from a re-analysis of the deposited data

Results flagged for a closer look

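In the genes below, both sessions differed in a given direction between *fru*+ and *fru*- cells of males and in the opposite direction in females, and the sex interaction did not pass the adjusted threshold for any of them. *nSyb* had a log2 difference of -0.13 in males and 0.36 in females, an interaction of -0.49 (standard error 0.28, unadjusted p = 0.104, adjusted p = 0.999). *Lgr3* had a log2 difference of -1.28 in males and 1.44 in females, an interaction of -2.72 (standard error 0.52, unadjusted p = 4.0e-04, adjusted p = 0.911). *CAP* had a log2 difference of 1.97 in males and -0.46 in females, an interaction of 2.43 (standard error 0.49, unadjusted p = 6.1e-04, adjusted p = 0.911).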

How the results depend on the processing

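Over the alternatives, the number of genes called between male *fru*+ and male *fru*- cells was 14 with no filter on low values, 182 with only the 4 male libraries, 1355 with those libraries and the replicate block, which leaves 1 residual degree of freedom, and 18 without the variance trend. It was 44 with a pseudocount of 0.1, 45 with a mean above 10 TPM, 47 with median-of-ratios scaling and 35 with the block. Leaving out each library gave 5 to 155 calls. The interaction called 1 gene with a pseudocount of 0.1, and 0 to 2 when each library was left out. Of the 87 genes named with their values, 82 kept their direction in every alternative. With median-of-ratios scaling the sign turned for *VGlut* (0.092) and *nSyb* (0.016), and over the fits without a library log2 differences ran from -0.064 to 0.114 for *Ddc*, from -0.906 to 0.021 for *Hsp83*, from -0.832 to 6.185 for *Pdf*, from -0.136 to 0.026 for *VGlut*. The cause of these changes was not tested, except that fits without a library hold fewer samples and the unfiltered fit tests 14917 genes. The monoamine list had 5 calls in the fit to the male libraries. Depth could not be turned into an interval without counts, and values under about 1 TPM, as for *lbl*, *odd* and *CG42566* in male *fru*- cells, are the least certain. With the block, 20 of the 52 calls were lost, and their adjusted p-values are given beside the genes named.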

Other observations

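Of 17 tested circadian clock genes 0 were called in limma, and the median was -0.07. At an unadjusted p under 0.05, 1 was higher and 2 lower (5.88% and 11.8%, against 3.74% and 9.65% of all genes). Their log2 differences ran from -0.74 to 2.68. Without overlap 3 genes were higher and 6 lower (17.6% and 35.3%, near the 15.0% and 34.1% of all genes). The highest was that of *Pdf*, the peptide of the ventral clock neurons, chosen after its values were seen and listed at 92.5 and 342 TPM in male *fru*+ against 1.46 and 318 TPM in male *fru*- cells, with overlapping groups (log2 difference 2.68, SE 1.79, adjusted p = 0.561). *cry*, the blue-light photoreceptor of clock neurons, was listed at 19.6 and 24.4 TPM in male *fru*+ against 10.5 and 14.4 TPM in male *fru*- cells (log2 difference 0.78, adjusted p = 0.253). Chemoreceptor genes are mostly silent in the brain, and 33 of 179 were tested, with 0 called in limma. At an unadjusted p under 0.05, 4 were higher and 7 lower (12.1% and 21.2%, against 3.74% and 9.65% of all genes). The gustatory receptor genes *Gr28a* and *Gr28b*, which lie next to each other, were both higher. *Gr28a* was listed at 4.74 and 5.88 TPM in male *fru*+ against 0.358 and 0.599 TPM in male *fru*- cells (log2 difference 2.09, adjusted p = 0.0985), and *Gr28b* at 11.3 and 15.9 TPM in male *fru*+ against 3.05 and 3.98 TPM in male *fru*- cells (log2 difference 1.68, adjusted p = 0.0707). *Gr77a* was lower, listed at 1.04 and 0.519 TPM in male *fru*+ against 7.78 and 5.28 TPM in male *fru*- cells (log2 difference -2.08, adjusted p = 0.0565). *Frq2*, a neuronal calcium sensor of the frequenin family, was listed at 8.83 and 10.6 TPM in male *fru*+ against 2.94 and 2.57 TPM in male *fru*- cells (log2 difference 1.51, adjusted p = 0.0707), and *Pka-C3*, a protein kinase A subunit, at 16.6 and 17.3 TPM in male *fru*+ against 45.7 and 42.8 TPM in male *fru*- cells (log2 difference -1.33, adjusted p = 0.0526).

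The replicates differed in heat shock genes. The 25 genes of that list added up to 48029 and 20608 TPM in male *fru*+ against 63405 and 22919 TPM in male *fru*- cells, so replicate 1 lay above replicate 2 in both groups. Of the genes tested, 0 of 25 were called in limma. At an unadjusted p under 0.05, 1 was higher and 0 lower (4% and 0%, against 3.74% and 9.65% of all genes). *Hsp83*, the Hsp90 chaperone, was listed at 2994 and 1909 TPM in male *fru*+ against 4479 and 2356 TPM in male *fru*- cells.

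Of the lists not yet described, 0 genes were called in limma among 20 activity-regulated genes (median -0.12), 63 of cAMP, calcium and G protein signalling (median -0.22), 12 immune effectors (median -0.08), 36 proteasome subunits (median 0.09) and 19 V-ATPase subunits (median 0.04). At an unadjusted p under 0.05 these had 1, 1, 1, 0 and 1 genes higher and 2, 8, 1, 0 and 0 lower. The higher shares were 5%, 1.59%, 8.33%, 0% and 5.26%, against 3.74% of all genes. The lower shares were 10%, 12.7%, 8.33%, 0% and 0%, against 9.65%. The neuroblast list, with *ase* and *wor* at 0 in all 4 libraries, added up to 19.2 and 18.6 TPM in male *fru*+ against 10.2 and 9.36 TPM in male *fru*- cells. Of its 12 genes 4 were tested and 0 called, and 7 were under 1 TPM in all 4 male libraries. *PCNA* was the largest single part of the sum in both male *fru*+ libraries.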
